A study of Homo sapiens with 9 samples.

Results

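Mitochondrial ribosomal protein genes are nuclear genes whose products build the ribosome inside mitochondria. They were taken here as every row of the deposited count table whose symbol begins with MRPL or MRPS, followed by a number and at most 1 letter from A to C. The rule found 78 of the 21170 rows, and all 78 were among the 13713 genes with enough counts to be tested. The libraries came from HaCaT, a spontaneously immortalised line of human keratinocytes. One group carried an empty vector (Vector), one overexpressed wild-type FTO, a demethylase acting on methylated adenosine in RNA (FTO), and one overexpressed a form of FTO whose demethylase activity was disrupted (mut-FTO). Each group had 3 libraries of polyadenylated RNA, so the 2 FTO groups share the same control libraries. The labels give no promoter for the constructs, no clone and no time after introduction, and they leave unsaid whether replicates were grown as separate cultures. The p-values therefore measure only the spread between these libraries, which may be technical.

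The mitochondrial ribosome makes only the proteins encoded by mitochondrial DNA, all of them core subunits of the respiratory chain and the ATP synthase. Its RNAs are transcribed in the mitochondrion, whereas all of its proteins are encoded in the nucleus, made in the cytosol and imported. Many of these proteins have a counterpart in bacterial ribosomes, and others are found only in mitochondria, where they enlarge the protein part of both subunits. The members fell into 30 large-subunit proteins with a bacterial counterpart, 21 large-subunit proteins specific to mitochondria, 16 small-subunit proteins with a bacterial counterpart and 10 small-subunit proteins specific to mitochondria. MRPS30 and MRPS18A carry small-subunit names but sit in the large subunit and were placed there. MRPS36 is named as a ribosomal protein but is a subunit of the 2-oxoglutarate dehydrogenase complex of the citric acid cycle, and it was kept as a class of 1.

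Total counts ran from 32222203 to 37846027 per library. The labels were checked against FTO itself, whose level in CPM (counts scaled to the size of the library) was 18.4, 16.97 and 25.8 in the Vector libraries, 69.6, 77.1 and 62.6 in the FTO libraries and 49.7, 82.7 and 64.3 in the mut-FTO libraries. The 10 keratinocyte markers summed to 19423 to 26170 CPM in Vector, 23637 to 24660 with FTO and 26539 to 33579 with mut-FTO, where KRT14 and KRT5 rose (edgeR). Against Vector, 7 of the 10 were higher and 3 lower in mut-FTO, with 2 lower at an unadjusted p under 0.05 (edgeR). In FTO 3 were higher and 7 lower, with 0 at an unadjusted p under 0.05. Without Vector replicate 3, 4 were higher and 6 lower in mut-FTO, and of the 10, 3 rose and 1 fell (6.56% and 8.41% of all genes). In FTO 1 was then higher and 9 lower. Of these 9, 3 had an unadjusted p under 0.05 by edgeR (10.6% of all genes) and 0 passed. The leukocyte genes CD3D, MS4A1 and TYROBP had no count in any library, and the leukocyte sum, which was mostly CD14, was 11.6 to 15.9 CPM in Vector, 15.99 to 17.7 with FTO and 25.1 to 30.9 with mut-FTO. Fibroblast markers summed to at most 10.8 CPM with THY1 at 0, melanocyte markers to at most 2.65 with TYR and DCT at 0, and endothelial markers to at most 1.73 with PECAM1 and CLDN5 at 0. Of these, CD14 rose in mut-FTO (adjusted p = 0.006 by edgeR) and the fibroblast gene DCN rose in both FTO groups, to 0.425 to 1.20 CPM with FTO and 1.56 to 3.14 with mut-FTO against at most 0.112 in Vector. Of the 4 fibroblast genes tested, 1 was lower in FTO (log2 fold change −0.98, unadjusted p under 0.05 by edgeR). Without Vector replicate 3, 1 of these 4 fell in FTO. The 1 endothelial gene tested had a log2 fold change of −2.91 in mut-FTO (adjusted p = 0.0528 by edgeR). Without Vector replicate 3 it fell (log2 −3.10, adjusted p = 0.0233). The part of these shifts in the results that follow was not tested. The columns of the count table carry the letters N, F and tF, which were matched to Vector, FTO and mut-FTO with the replicate numbers of the labels. The rise of FTO checks N against the other 2 letters, but which of F and tF is the mutant rests on the letters alone.

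Vector replicate 3 stood apart from the other 8 libraries. The 13 protein genes of mitochondrial DNA took 14.97% of its counts, against 4.16% and 4.2% in Vector replicates 1 and 2, 3.80% to 4.32% with FTO and 5.52% to 7.45% with mut-FTO. Loci assembled without a gene symbol took 2.5% of its counts and 3.17% in mut-FTO replicate 2, against 0.689% to 0.874% elsewhere. Results are therefore given with and without Vector replicate 3.

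Together the 78 genes took 0.293% to 0.463% of the counts of a library, and the share was lowest in 2 of the Vector libraries. It was 0.450% (95% Wilson interval 0.448% to 0.452%), 0.376% (0.374% to 0.378%) and 0.293% (0.291% to 0.295%) in Vector. It was 0.435%, 0.417% and 0.463% with FTO and 0.461%, 0.405% and 0.420% with mut-FTO, with intervals equally narrow that cover counting error only. Vector replicate 1 lay within the range of the FTO libraries, so the low group value came from Vector replicates 2 and 3. On the normalised scale the summed level was 3637 ± 778 CPM for Vector, 4377 ± 245 for FTO and 4402 ± 153 for mut-FTO (SD, n = 3). In bulk RNA of this kind, fewer cells and less RNA per cell cannot be told apart.

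The genes differed in level by a factor of 55.9 when expressed per length (mean CPM over the 9 libraries divided by the transcript length in kilobases). The median was 39.6 CPM per kilobase, with the middle 50% of members between 23.1 and 62.1. MRPS24, a protein of the small-subunit head, was highest at 261 CPM per kilobase (108 to 326 over the libraries), followed by MRPL49 of the large subunit at 187 (108 to 228) and MRPL23, which lines the exit of the peptide tunnel, at 152 (58.9 to 185). MRPL50, specific to mitochondria, was lowest at 4.67 (3.56 to 6.06), preceded by MRPL1 of the mobile stalk where spent tRNA leaves at 5.53 (3.78 to 7.04) and MRPL39 at 7.86 (5.38 to 11.2). The library ranges overlapped for all 77 pairs of neighbours in this order. The order itself was similar between libraries, with Spearman correlations of 0.76 to 0.99 over the 78 genes, which share the same lengths in every library. Exons of MRPS24 share 606 bases with URGCP-MRPS24 on the same strand, which has its own row of counts. Exons of MRPL49 share 114 bases with FAU and 93 with SYVN1 on the opposite strand. How reads in these stretches were counted is not given in the sources used here.

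**Figure D1:**
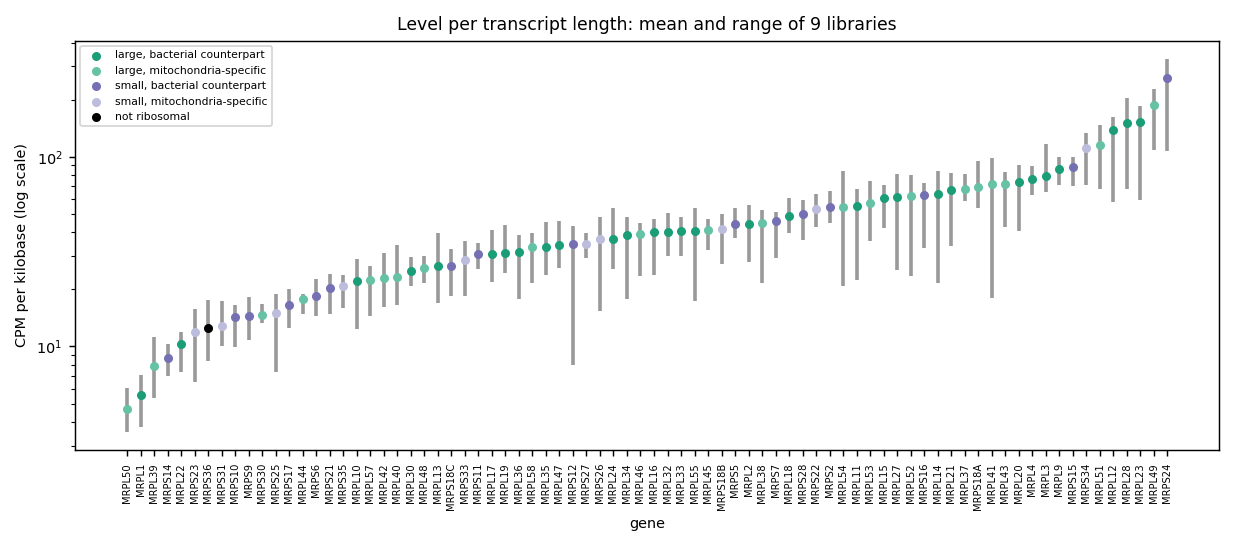
Level of each of the 78 genes per transcript length, in CPM per kilobase on a log axis, with genes on the horizontal axis in order of level. Points are means of the 9 libraries coloured by class, and bars run from the lowest to the highest library; MRPL50 at 4.67 and MRPS24 at 261 are the ends of the order, and the 4 ribosomal classes are mixed along it.

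The 3 proteins numbered MRPS18 are paralogues, of which MRPS18C is the bacterial type in the small subunit, MRPS18B is another small-subunit copy and MRPS18A lies in the large subunit. MRPS18A averaged 69.4 CPM per kilobase, MRPS18B 41.5 and MRPS18C 26.7, and the library ranges of MRPS18A (54.0 to 95.3) and MRPS18B (27.3 to 49.7) did not overlap. On the opposite strand, exons of MRPS18A share 604 bases with RSPH9, which has its own row of counts. Those of MRPS18C share 1296 with ABRAXAS1, which has no row under that symbol. Whether the counting used strand is not given, so the part of these reads in the order of the paralogues is not known.

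Promoter sequences were available for 69 of the 78 genes in RefSeq (GRCh38.p14), each running from 250 bases before to 50 after the transcription start. These windows were searched on both strands for sites of 3 factors known to regulate nuclear genes of mitochondrial proteins. An ETS site of the kind bound by GABP (CCGGAAGT or CCGGAAGC) was in 27 of 69 members (39.1%), against 12.4% of 14510 genes of the count table with a promoter entry. A YY1 site (AAGATGGC) was in 21 of 69 (30.4%), against 4.82%, and the palindromic NRF1 motif of 10 letters was in 1 of 69 (1.45%, MRPL17), against 1.99%. At least one of the ETS and YY1 sites was in 41 members (59.4%, against 16.3%), and both were in 7 (10.1%, against 0.875%). On opposite strands the CCGGAAGC form can share its last bases with a YY1 site. These matches describe letters in the windows and not binding. Promoters are printed for the members of lowest p that had an entry (MRPS33, MRPL54 and MRPL40) and, chosen after the values were seen, for MRPL47, which held both sites, and for MRPL46, whose start faces that of MRPS11 at a distance of 320 bases. All are written 5′ to 3′ on the strand of the gene with matched sites in capitals. The windows are chr7:141014903-141015202 (minus strand) for MRPS33, chr19:3762432-3762731 (plus) for MRPL54, chr22:19432295-19432594 (plus) for MRPL40, chr3:179604589-179604888 (minus) for MRPL47 and chr15:88467339-88467638 (minus) for MRPL46. MRPS33 and MRPL47 each had another listed start nearby, which is not shown.
MRPS33: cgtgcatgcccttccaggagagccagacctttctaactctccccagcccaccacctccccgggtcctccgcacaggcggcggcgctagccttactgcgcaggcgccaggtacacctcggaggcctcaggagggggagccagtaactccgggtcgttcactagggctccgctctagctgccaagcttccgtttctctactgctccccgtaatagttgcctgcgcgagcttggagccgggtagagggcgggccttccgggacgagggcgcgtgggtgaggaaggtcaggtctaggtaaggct
MRPL54: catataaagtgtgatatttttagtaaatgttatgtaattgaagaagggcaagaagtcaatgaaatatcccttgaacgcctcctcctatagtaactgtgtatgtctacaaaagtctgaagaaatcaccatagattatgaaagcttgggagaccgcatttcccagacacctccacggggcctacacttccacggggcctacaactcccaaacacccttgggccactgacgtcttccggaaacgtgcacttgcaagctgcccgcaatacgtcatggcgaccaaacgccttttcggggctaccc
MRPL40: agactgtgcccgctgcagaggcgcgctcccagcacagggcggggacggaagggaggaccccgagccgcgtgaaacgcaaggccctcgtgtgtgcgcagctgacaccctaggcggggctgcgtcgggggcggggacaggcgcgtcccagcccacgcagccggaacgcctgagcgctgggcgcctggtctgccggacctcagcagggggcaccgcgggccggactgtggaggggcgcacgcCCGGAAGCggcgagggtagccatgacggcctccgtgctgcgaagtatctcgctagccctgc
MRPL47: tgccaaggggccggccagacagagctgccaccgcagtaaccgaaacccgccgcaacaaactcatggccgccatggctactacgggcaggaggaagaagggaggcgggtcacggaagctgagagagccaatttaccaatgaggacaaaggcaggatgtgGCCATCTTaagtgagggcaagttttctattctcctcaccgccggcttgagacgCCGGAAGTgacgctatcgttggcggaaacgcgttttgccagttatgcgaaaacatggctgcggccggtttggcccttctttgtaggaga
MRPL46: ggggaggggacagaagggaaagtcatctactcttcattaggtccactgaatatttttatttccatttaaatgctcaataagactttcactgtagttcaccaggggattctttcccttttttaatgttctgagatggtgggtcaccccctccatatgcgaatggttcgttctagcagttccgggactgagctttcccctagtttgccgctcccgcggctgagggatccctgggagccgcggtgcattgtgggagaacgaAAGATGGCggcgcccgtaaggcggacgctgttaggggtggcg

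The promoter of MRPL40 holds 1 ETS site close to its start, and that of MRPL47 holds an ETS site and, on the opposite strand further upstream, a YY1 site. In MRPL46 the YY1 site lies just after the start. MRPS33 and MRPL54, whose p-values were among the lowest, hold none of the 3 sites in these windows. Of the 69 members with a promoter entry, 26 had a gene on the opposite strand that started within 1000 bases upstream, read away from the member. The share over all genes was not computed.

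Across the 9 libraries the most prominent difference among members was the low level of many of them in Vector replicate 3. Deviations were taken as log2 CPM minus the mean of the 9 libraries, and their median over the 78 genes was 0.12, −0.23 and −0.46 in the Vector libraries. It was 0.09, 0.04 and 0.23 with FTO and 0.18, 0.08 and 0.06 with mut-FTO. Vector replicate 3 was the lowest of the 9 libraries for 52 of 78 members (66.7%), against 28.3% of all genes tested. Vector replicate 2 was the lowest for 12 (15.4%, against 6.41% of all genes) and Vector replicate 1 for 5 (6.41%, against 13.7%). Vector replicate 1 was the highest library for 14 members, and the share over all genes for the highest library was not computed. The median SD of log2 CPM within a group of the members was 0.37 for Vector, 0.11 for FTO and 0.16 for mut-FTO, and over all genes it was 0.37, 0.14 and 0.23. With Vector replicates 1 and 2 alone it was 0.21 for members.

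The members that were low in Vector replicate 3 came from every class. It was the lowest library for 22 of 30 large-subunit and 9 of 16 small-subunit proteins with a bacterial counterpart, and for 14 of 21 large-subunit and 7 of 10 small-subunit proteins specific to mitochondria. MRPS12, a core protein of the decoding centre, measured 51.9, 36.7 and 9.62 CPM in the Vector libraries, 49.8, 41.8 and 46.4 with FTO and 51.6, 44.2 and 43.4 with mut-FTO. MRPL41 measured 106, 76.9 and 22.8 CPM in Vector, 111, 84.8 and 113 with FTO and 125, 84.8 and 91.9 with mut-FTO. For both genes Vector replicate 3 lay far under all other libraries, Vector replicate 2 was the next lowest and Vector replicate 1 lay in the upper part of the range. MRPL12, a stalk protein that also binds the mitochondrial RNA polymerase, also had Vector replicate 3 lowest and Vector replicate 2 next, at 167, 128 and 59.3 CPM in Vector, 142 to 159 with FTO and 154 to 158 with mut-FTO.

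A few members went the other way. Vector replicate 3 was the highest library for 6 genes, MRPL3, MRPL19, MRPL32, MRPS9, MRPS30 and MRPS31. MRPL3, near the catalytic centre of the large subunit, measured 120.3, 103 and 185 CPM in Vector, 123, 124 and 145 with FTO and 111, 109 and 103 with mut-FTO. MRPL32, which is matured by the protease of the inner membrane, measured 35.5, 30.9 and 52.5 CPM in Vector, 36.2, 37.3 and 40.2 with FTO and 49.9, 49.7 and 42.2 with mut-FTO. Both were therefore highest in the library in which most members were lowest.

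**Figure D2:**
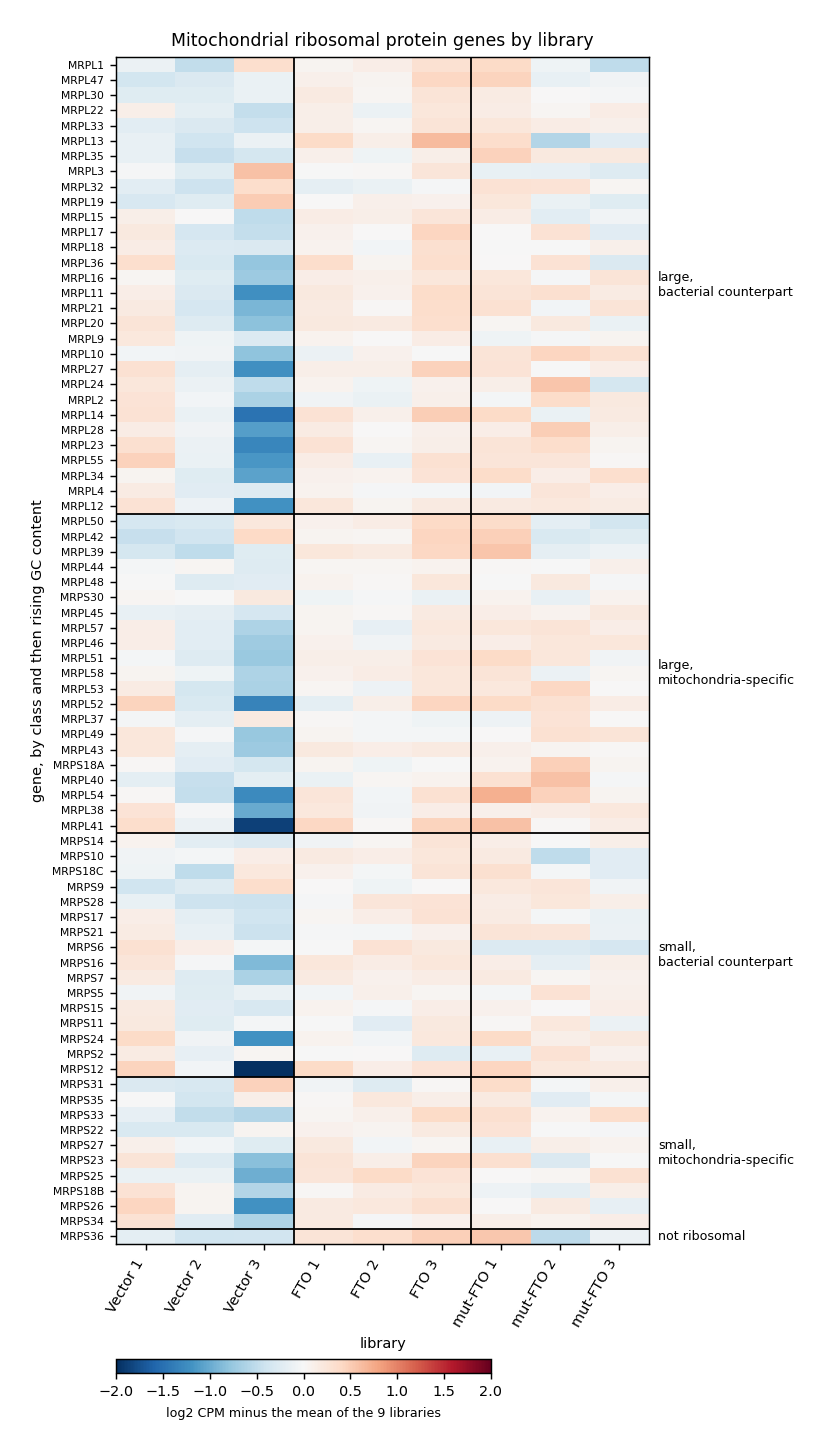
Log2 CPM of each member minus its mean over the 9 libraries, from blue (lower) to red (higher), with libraries in columns and genes in rows, ordered by class and then by rising GC content. Vector replicate 3 is the darkest blue column, reaching −1.99 for MRPS12 and −1.87 for MRPL41, mostly in the GC-rich rows at the lower end of each class.

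The deviation in Vector replicate 3 moved with the base composition of the transcripts. Transcript GC content was 50.3% at the median of the members (35.0% to 71.9%) and 49.96% over all genes with a value, while members were shorter, at a median of 1137 against 2525 bases. Over the 78 members the Spearman correlation of deviation with GC content was −0.65 in Vector replicate 3 and 0.72 in Vector replicate 1, while it was 0.44 in Vector replicate 2. It lay between −0.21 and 0.16 over the FTO libraries and was −0.20, 0.57 and 0.39 over those of mut-FTO. Over all genes it was −0.55, 0.50 and 0.27 in the Vector libraries, so the trend was not confined to members. These are descriptions over genes that share a library. When the members were cut by GC content into 3 sets of 26, the median deviation in Vector replicate 3 was −0.03 in the GC-poor set (35.0% to 46.4% GC), −0.62 in the middle set and −1.04 in the GC-rich set (54.0% to 71.9%). That library was the lowest of 9 for 6 of 26, 24 of 26 and 22 of 26 members in these sets. In Vector replicate 1 the same medians were −0.16, 0.15 and 0.25. The deviation in Vector replicate 3 also moved with transcript length, with a Spearman correlation of 0.35 over members and 0.34 over all genes. When the members were cut by length into 3 sets of 26, its median was −0.74 in the shortest, −0.30 in the middle and −0.28 in the longest set.

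**Figure D3:**
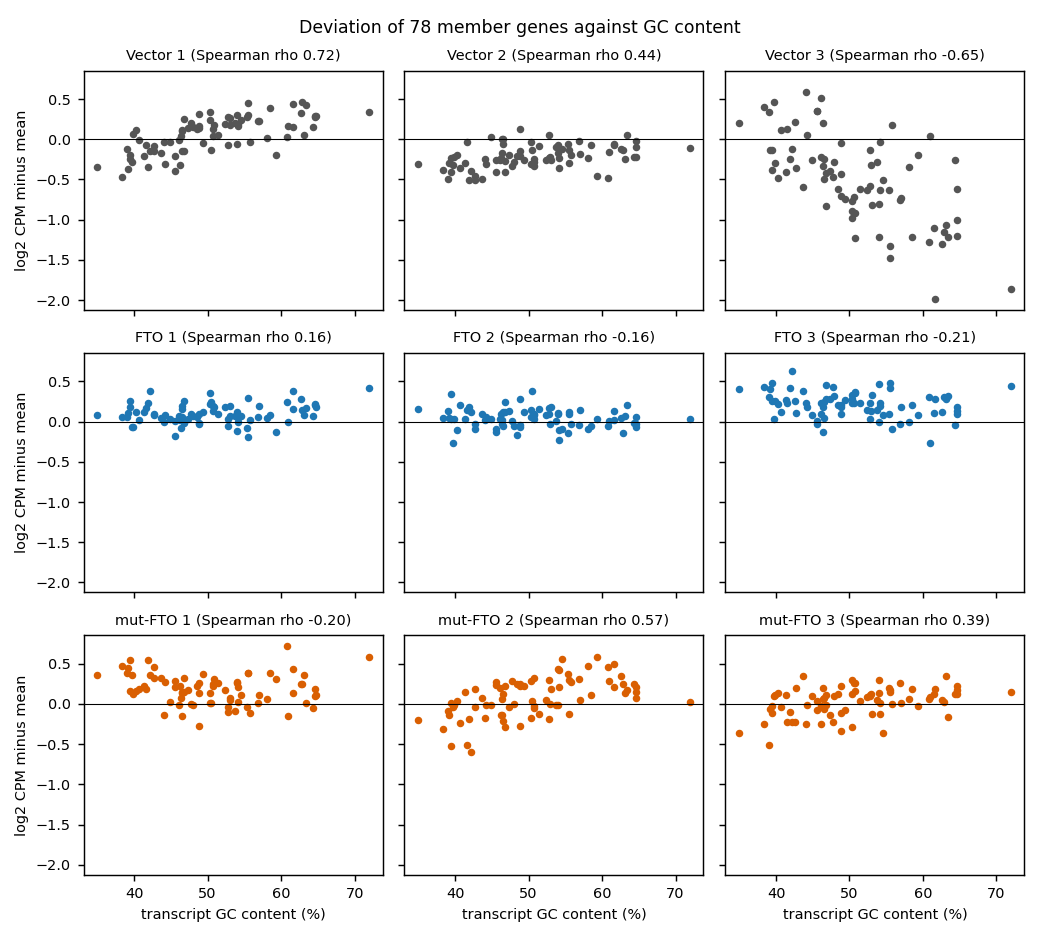
Deviation of each member (log2 CPM minus the mean of the 9 libraries, vertical axis) against the GC content of its transcript in percent (horizontal axis), 1 panel for each library, points being genes. The points slope down in Vector replicate 3 (rho −0.65) and up in Vector replicate 1 (0.72) and mut-FTO replicate 2 (0.57), and are nearly flat in FTO.

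With wild-type FTO, no member passed the test against Vector. By edgeR's quasi-likelihood test with Benjamini-Hochberg adjustment over all genes, 0 of 78 rose and 0 fell at an adjusted p under 0.05, where 0.306% of all genes rose and 0.438% fell (0.744% in all). The smallest adjusted p among the members was 0.227. DESeq2 and limma-voom called 0 members as well. At an unadjusted p under 0.05, edgeR had 14 members higher and 0 lower, where 4.94% of all genes were higher and 6.95% lower. That count of 14 varied with the libraries used, from 40 without Vector replicate 1 to 6 without Vector replicate 2, 7 without FTO replicate 1 and 1 without FTO replicate 3. It was 8 with libraries scaled by their totals alone and 6 with offsets for GC content and length. Over all genes, calls by adjusted p were 102 with all libraries and 95, 50, 32 and 27 without these libraries in turn. They were 115 with totals alone and 249 with the offsets. The share of all genes at an unadjusted p under 0.05 is not given for these settings. The log2 fold change was positive for 72 of 78 members, against 49.8% of all genes, with a median of 0.29 against −0.002 over all genes. The 3 FTO libraries lay above the 3 Vector libraries for 22 members (10.1% of all genes) and below them for 1, MRPS30 (10.9% of all genes). When Vector replicate 3 was left out, again 0 members passed (1.15% of all genes rose and 2.26% fell, 3.41% in all), with 12 higher and 0 lower at an unadjusted p under 0.05 (8.69% and 10.6% of all genes). The median was then 0.15 with 62 of 78 positive (48.7% of all genes), and 32 members were higher without overlap (23% of all genes). Without Vector replicate 1 the median was 0.43.

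The medians of the classes were alike in sign. They were 0.36 and 0.29 for large-subunit proteins with and without a bacterial counterpart, and 0.19 and 0.25 for those of the small subunit. Without Vector replicate 3 they were 0.18, 0.11, 0.10 and 0.21, and differences between classes were not tested. By place in the structure, the stalk proteins MRPL10, MRPL11 and MRPL12 had a median of 0.37, the 5 proteins of the central protuberance 0.27, the 6 around the tunnel exit 0.33 and the 8 of the small-subunit head 0.20. Without Vector replicate 3 the stalk median went to 0.03, the central protuberance to 0.14 and the tunnel exit to 0.15, while the head stayed at 0.20, so that the order of these groups changed. The median was 0.36 for members with both promoter sites, 0.31 with ETS alone, 0.27 with YY1 alone and 0.22 with neither. Leaving out Vector replicate 3 changed these to 0.19, 0.17, 0.08 and 0.15, in another order, and differences between them were not tested. Removing mitochondrially encoded genes and unnamed loci before normalisation left the median over members at 0.28. Offsets that take out each library's trends with GC content and length, an alternative chosen after seeing the data, gave a median of 0.08, with −0.03 over all genes.

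The members of lowest p in this comparison were proteins of the small subunit. MRPS33, specific to mitochondria and part of the head, measured 18.4, 14.7 and 13.7 CPM in Vector and 21.4, 22.2 and 26.9 in FTO. All FTO libraries lay above all Vector libraries, and the log2 fold change was 0.59 (SE 0.18, adjusted p = 0.227 by edgeR). MRPS28, which takes the place of the largest bacterial small-subunit protein, measured 25.9, 21.6 and 21.3 CPM in Vector and 28.2, 34.0 and 34.6 in FTO, again without overlap (log2 0.49, SE 0.16, adjusted p = 0.258 by edgeR). Exons of MRPS28 share 471 bases on the same strand with AC036214.3, which has no row of its own in the count table. MRPS25 measured 17.1, 17.1 and 9.45 CPM in Vector and 22.3, 24.3 and 22.7 in FTO. Its log2 fold change of 0.67 (adjusted p = 0.267 by edgeR) became 0.41 without Vector replicate 3, the library at 9.45. Exons of MRPS25 share 756 bases with NR2C2 on the opposite strand, and whether the counting used strand is not given in the sources used here, so reads of the pair cannot be told apart.

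In the large subunit, MRPL39, MRPL13 and MRPL54 stood highest. MRPL39, specific to mitochondria, measured 6.93, 6.21 and 7.44 CPM in Vector and 10.3, 10.01 and 11.8 in FTO (log2 0.64, SE 0.23, adjusted p = 0.293 by edgeR). The groups did not overlap, and Vector replicate 3 was the highest of the Vector libraries. MRPL13, with a bacterial counterpart, measured 25.1, 21.1 and 25.7 CPM in Vector and 36.4, 30.2 and 43.1 in FTO (log2 0.61, SE 0.24, adjusted p = 0.332). For these 2 genes the fold change did not shrink without Vector replicate 3, at 0.68 and 0.64. MRPL54 measured 32.5, 22.8 and 13.1 CPM in Vector and 37.6, 30.7 and 39.3 in FTO, where the groups overlapped, and its log2 fold change of 0.66 became 0.35 without Vector replicate 3.

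MRPS36, the subunit of 2-oxoglutarate dehydrogenase, had the highest fold change of the 78 rows. It measured 12.7, 10.9 and 11.1 CPM in Vector and 17.3, 18.3 and 20.1 in FTO (log2 0.69, SE 0.24, adjusted p = 0.294 by edgeR). Without it the median over the other 77 members was 0.28. MRPS36 has 5 named pseudogenes, none with a row of its own in the count table. How reads matching both were counted is not given.

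Only 6 members had a negative log2 fold change, and none of them reached an unadjusted p under 0.05. MRPS30 measured 25.2, 24.5 and 28.3 CPM in Vector and 23.2, 24.1 and 22.5 in FTO, which is lower in every FTO library by a small step (log2 −0.16, SE 0.16, adjusted p = 0.721 by edgeR). MRPS2 stood at −0.10, with 95.2, 75.7 and 86.9 CPM in Vector and 84.4, 85.6 and 70.8 in FTO. MRPS31 (−0.10) and MRPL32 (−0.06) turned to 0.18 and 0.17 without Vector replicate 3, in which both were highest.

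With demethylase-mutant FTO, MRPL35 and MRPS33 rose against Vector and no member fell. That is 2 of 78 members up and 0 down at an adjusted p under 0.05, where 3.27% of all genes rose and 4.51% fell (7.78% in all). The share of members that rose was therefore no higher than that of all genes. At an unadjusted p under 0.05, 14 members were higher and 1 was lower, against 10.1% and 11% of all genes. The 14 became 39 without Vector replicate 1 and 9 without FTO replicate 1, 9 with scaling by totals alone and 7 with only the 6 libraries compared. Over all genes, calls by adjusted p were 1270, 792, 1092 and 621 in these settings, against 1067 in the main fit. The share of all genes at an unadjusted p under 0.05 is not given for them. The log2 fold change was positive for 72 of 78 members (49.9% of all genes), with a median of 0.26 against −0.001 over all genes, and 0.45 without Vector replicate 1. The mut-FTO libraries lay above all Vector libraries for 15 members (12.2% of all genes) and below them for 1, MRPS6 (11.8% of all genes). Leaving out Vector replicate 3, 5 members rose (MRPL32, MRPL35, MRPL40, MRPL54 and MRPS33) and MRPS6 fell, where 6.56% of all genes rose and 8.41% fell (15% in all). The median was then 0.14, with 66 of 78 positive (52.7% of all genes) and 21 members higher without overlap (20.4% of all genes).

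MRPL35, a large-subunit protein with a bacterial counterpart, measured 28.2, 22.7 and 24.4 CPM in Vector, 33.5, 29.3 and 33.8 with FTO and 43.0, 35.6 and 35.9 with mut-FTO. The 3 groups did not overlap, with FTO between the others. It rose in mut-FTO 1.52-fold (log2 0.61, SE 0.17, adjusted p = 0.0432 by edgeR), and in FTO its log2 fold change was 0.36 (adjusted p = 0.42). MRPS33 measured 25.9, 21.9 and 26.4 CPM in mut-FTO, beside the Vector and FTO values given above. The mut-FTO libraries lay above Vector and among those of FTO, and it rose 1.59-fold against Vector (log2 0.66, SE 0.18, adjusted p = 0.0457 by edgeR). MRPL35 has 4 named pseudogenes and MRPS33 has 3, none with a row of its own in the count table, and how reads matching both were counted is not given in the sources used here.

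Both calls stood close to the threshold. They were kept without Vector replicate 1 (adjusted p = 0.0343 and 0.0261) and without Vector replicate 3 (0.0179 and 0.0281), and both were lost without Vector replicate 2 or without any single FTO or mut-FTO library, with adjusted p from 0.071 to 0.164 for MRPL35 and from 0.0628 to 0.169 for MRPS33. Both were also lost when only the 6 libraries compared were fitted (0.167 and 0.153), when libraries were scaled by their totals alone (0.082 and 0.0861) and when low genes were not filtered (0.0572 and 0.0545). MRPS33 alone was lost with DESeq2's size factors in edgeR (0.0505). The log2 fold change stayed between 0.49 and 0.80 for both genes in every alternative.

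**Figure D4:**
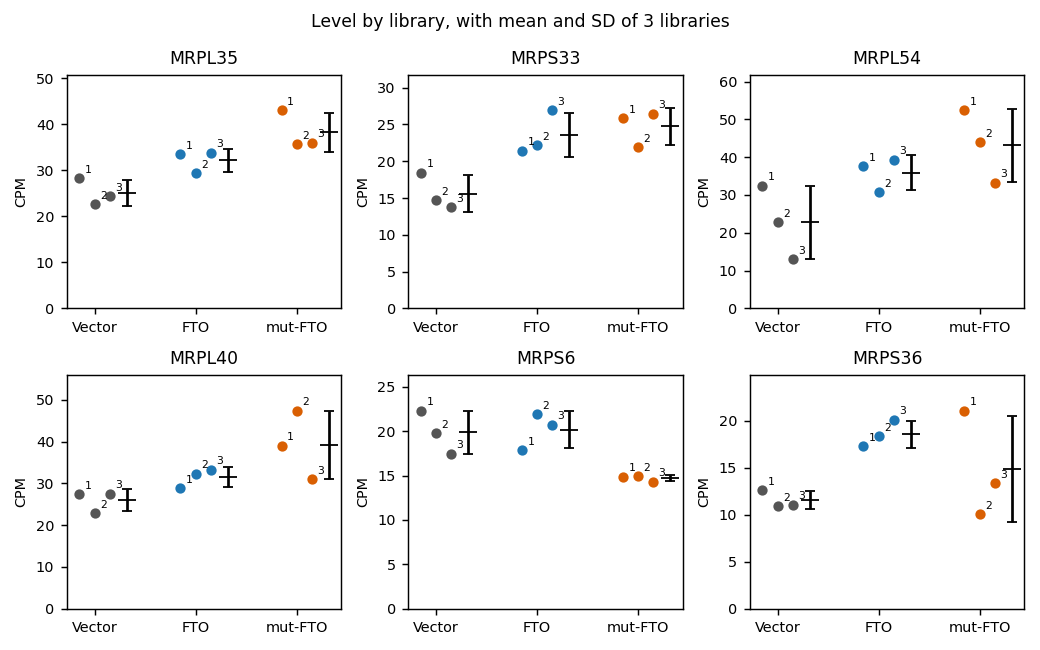
CPM of 6 members in each library (points with the replicate number), by group, with the mean and SD of 3 libraries as a bar to the right. For MRPL35 and MRPS33 all mut-FTO libraries lie above all Vector libraries, for MRPS6 they lie below all others at 14.3 to 14.9, and for MRPS36 the FTO libraries lie at 17.3 to 20.1 with the mut-FTO libraries on both sides.

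The next members were MRPL54 and MRPL40. MRPL54, specific to mitochondria, measured 52.4, 44.0 and 33.2 CPM in mut-FTO against 32.5, 22.8 and 13.1 in Vector. The groups did not overlap, but the lowest mut-FTO and highest Vector libraries were close, and the log2 fold change of 0.92 (SE 0.29, adjusted p = 0.0723 by edgeR) became 0.64 (adjusted p = 0.041) without Vector replicate 3. MRPL40, in the central protuberance, measured 27.4, 22.9 and 27.6 CPM in Vector, 28.9, 32.3 and 33.2 with FTO and 39.0, 47.4 and 31.0 with mut-FTO. Every library of both FTO groups lay above Vector, with a log2 fold change of 0.59 in mut-FTO (SE 0.19, adjusted p = 0.0755 by edgeR). With Vector replicate 3 left out MRPL40 rose (log2 0.63, adjusted p = 0.0212). DESeq2 on all 9 libraries called 6 members, all higher, which were these 4 with MRPL33 and MRPS28.

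The stalk proteins were the structural group of highest median in mut-FTO, at 0.60 over 3 genes. MRPL10, the base of the stalk, measured 35.8, 35.3 and 21.2 CPM in Vector, 34.2, 39.6 and 36.9 with FTO and 44.5, 50.1 and 45.8 with mut-FTO (log2 0.60 against Vector, SE 0.20, adjusted p = 0.0947 by edgeR). The mut-FTO libraries were the 3 highest of the 9. MRPL11 measured 87.4, 65.8 and 34.1 CPM in Vector and 95.5, 100.4 and 89.5 in mut-FTO (log2 0.61, adjusted p = 0.204 by edgeR), and MRPL12 had a log2 fold change of 0.40. These became 0.39, 0.30 and 0.07 when Vector replicate 3 was left out. The central protuberance, tunnel exit and small-subunit head had medians of 0.31, 0.31 and 0.20, which became 0.17, 0.11 and 0.14 without that library. By class, the medians were 0.28 and 0.35 for large-subunit proteins with and without a bacterial counterpart and 0.19 and 0.20 for the small subunit, and without Vector replicate 3 they were 0.13, 0.21, 0.07 and 0.09. By promoter, they were 0.37 with both sites, 0.25 with ETS alone, 0.27 with YY1 alone and 0.21 with neither, against 0.15, 0.15, 0.09 and 0.13 when Vector replicate 3 was left out.

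MRPS6 had the lowest log2 fold change of the members in mut-FTO, and did not pass with all libraries. It measured 22.3, 19.7 and 17.5 CPM in Vector, 17.8, 21.9 and 20.7 with FTO and 14.9, 14.9 and 14.3 with mut-FTO. The mut-FTO libraries were the 3 lowest of the 9 and differed little among themselves, while Vector and FTO overlapped. The log2 fold change against Vector was −0.43 (SE 0.17, adjusted p = 0.16 by edgeR), and without Vector replicate 3 MRPS6 fell by 0.53 on the log2 scale (adjusted p = 0.0264). Its exons share 176 bases with SLC5A3 on the same strand, a myo-inositol transporter gene that lies within the MRPS6 locus, and reads there cannot be told apart. SLC5A3 itself measured 1.64, 2.27 and 1.49 CPM in Vector, 2.10, 2.12 and 1.37 with FTO and 1.27, 0.815 and 1.33 with mut-FTO. The remaining negative values were smaller. MRPL3 stood at −0.34 (adjusted p = 0.367 by edgeR) and moved to −0.06 without Vector replicate 3, and MRPS10 stood at −0.17, with 33.9, 20.9 and 25.5 CPM in mut-FTO against 28.3, 29.2 and 32.6 in Vector.

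With GC content and length offsets, 5 members passed in mut-FTO. Over all genes, calls in either direction went from 1067 to 2142 of 13713 with these offsets. The share of members called was therefore no higher than that of all genes, and the gain in calls was not confined to members. MRPL10, MRPL35, MRPL54 and MRPS33 rose by log2 0.53, 0.49, 0.56 and 0.50 (adjusted p = 0.0199, 0.0173, 0.0171 and 0.0335 by edgeR), and MRPS6 fell by 0.59 (adjusted p = 0.00825). The median over members was 0.15 with these offsets. With neither Vector replicate 3 nor offsets, the medians over the GC-poor, middle and GC-rich sets were 0.32, 0.15 and 0.02 with FTO and 0.29, 0.08 and 0.07 with mut-FTO. After the offsets the median deviation of the members was 0.07, −0.11 and −0.29 in the Vector libraries, so Vector replicate 3 was still the lowest, by a smaller step.

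**Figure D5:**
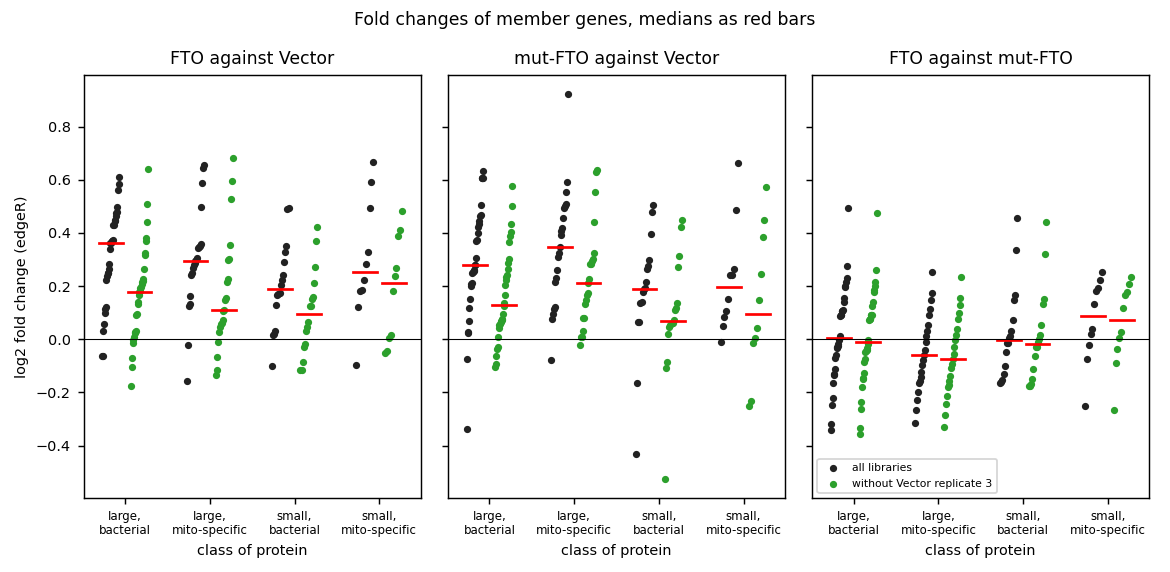
Log2 fold change of each member by edgeR (vertical axis) in the 3 comparisons, by class of protein (horizontal axis; MRPS36 is not drawn), with all libraries in black and without Vector replicate 3 in green; red bars are medians. Against Vector most points lie above 0 in every class and the medians drop without Vector replicate 3, to 0.15 in FTO and 0.14 in mut-FTO over all members, while FTO against mut-FTO is centred on 0.

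Between wild-type and mutant FTO no member passed the test. With edgeR 0 of 78 were higher and 0 lower in FTO than in mut-FTO, where 1.2% of all genes were higher and 1.13% lower (2.33% in all), and DESeq2 and limma-voom also called 0. At an unadjusted p under 0.05 edgeR had 1 member higher, MRPS6, and 0 lower (6.69% and 7.3% of all genes). The signs were split evenly, 39 to 39 (50.6% of all genes positive), with a median of 0.001 against 0.005 over all genes. FTO lay above mut-FTO without overlap for 5 members (MRPL3, MRPL43, MRPS6, MRPS16 and MRPS26) and below for 4 (MRPL10, MRPL32, MRPL35 and MRPS18A), shares under the 14.8% and 14.2% of all genes. Leaving out Vector replicate 3, which enters here only through the scaling and the estimate of the spread, again 0 members passed (4.6% and 5.63% of all genes, 10.2% in all), with 35 of 78 positive (48.5% of all genes) and 3 higher and 3 lower at an unadjusted p under 0.05 (11.5% and 13.5%).

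The level of MRPS6 with FTO was 1.37 times that with mut-FTO (log2 0.45, SE 0.17, adjusted p = 0.236 by edgeR), and its adjusted p was 0.0514 without Vector replicate 3. MRPL13 was the next on this side, at log2 0.49 (SE 0.24), but its mut-FTO libraries were scattered at 35.7, 18.4 and 23.8 CPM and overlapped with FTO. On the other side MRPL10 stood at −0.34 (SE 0.20, adjusted p = 0.492) and without Vector replicate 3 at −0.36 (SE 0.12, adjusted p = 0.0642). MRPL40 stood at −0.31, MRPL32 at −0.32 and MRPL35 at −0.25, each with an SE of 0.17 to 0.20. MRPS36 stood at 0.32 (SE 0.24), with mut-FTO libraries at 21.1, 10.1 and 13.4 CPM around the FTO range.

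Other proteins of the mitochondrial ribosome, which carry names outside the rule, gave values in the same range. DAP3, CHCHD1, AURKAIP1, PTCD3 and GADD45GIP1 had 0 calls of 5 in each comparison (edgeR; 0 at an unadjusted p under 0.05 in FTO, 1 higher in mut-FTO), and their median log2 fold change was 0.35 in FTO and 0.33 in mut-FTO, or 0.13 and 0.12 without Vector replicate 3. AURKAIP1 measured 178, 135 and 40.7 CPM in Vector, so that Vector replicate 3 was low here too. DAP3, a GTP-binding protein of the small subunit, differed little, at 133, 134 and 122 CPM in Vector, 128, 133 and 144 with FTO and 118, 114 and 117 with mut-FTO.

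Where 3.27% of all genes rose in mut-FTO, 1 of 27 factors that assemble the mitochondrial ribosome or modify its RNA did, METTL17. It is a protein required for the small subunit to mature, and it measured 38.1, 31.2 and 20.6 CPM in Vector, 37.5, 34.3 and 36.0 with FTO and 52.3, 59.1 and 59.3 with mut-FTO. The mut-FTO libraries lay above all others (log2 0.93 against Vector, SE 0.21, adjusted p = 0.0151 by edgeR), and the log2 fold change of FTO against mut-FTO was −0.66 (adjusted p = 0.137). TFB1M, which dimethylates the small ribosomal RNA, was lowest in mut-FTO, at 6.68, 7.30 and 7.40 CPM against 13.1, 10.96 and 9.64 in Vector and 12.5, 10.7 and 12.8 in FTO (log2 −0.66 against Vector, SE 0.19, adjusted p = 0.057 by edgeR). In FTO 0 of these 27 passed (0 at an unadjusted p under 0.05). Without Vector replicate 3, METTL17 and the methyltransferase METTL15 rose and TFB1M and the assembly factor RBFA fell in mut-FTO. That is 2 up and 2 down of 27, where 6.56% of all genes rose and 8.41% fell (15% in all), so the shares were near those of all genes.

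Among 15 factors of mitochondrial translation, 1 was lower in FTO than in mut-FTO, where 1.13% of all genes were. This was OXA1L, which inserts newly made proteins into the inner membrane. It measured 101, 94.8 and 121 CPM in Vector, 92.4, 97.5 and 100.4 with FTO and 137, 181 and 149 with mut-FTO, which lay above all other libraries (FTO against mut-FTO log2 −0.68, SE 0.16, adjusted p = 0.0461 by edgeR; mut-FTO against Vector 0.56, adjusted p = 0.053). TUFM, the elongation factor that brings tRNA to the ribosome, measured 461, 416 and 265 CPM in Vector, 462 to 508 with FTO and 498 to 627 with mut-FTO, and did not pass (adjusted p = 0.529 and 0.128 by edgeR). Of 20 genes for charging mitochondrial tRNAs and of 14 for mitochondrial transcription and its nuclear regulators, 0 passed in any comparison with all libraries (edgeR; 2 and 1 were higher and 0 lower at an unadjusted p under 0.05 in FTO, and in mut-FTO 1 and 2 were higher and 1 and 3 lower). Without Vector replicate 3, 2 of the 15 translation factors rose in mut-FTO (6.56% of all genes). In FTO against mut-FTO, 1 of these 15 was then lower (5.63% of all genes) and 3 of the 14 transcription genes were higher (4.6%). The 20 genes for charging tRNAs still had 0 calls. GABPB1, a subunit of the factor that binds the ETS site, measured 25.2, 29.6 and 40.2 CPM in Vector, 29.99, 28.2 and 28.5 with FTO and 23.8, 18.6 and 16.3 with mut-FTO (mut-FTO against Vector log2 −0.69, adjusted p = 0.0636 by edgeR). YY1 measured 68.6, 81.9 and 76.4 CPM in Vector and 108, 82.0 and 99.6 in mut-FTO (adjusted p = 0.231).

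The products of this ribosome are encoded by 13 genes of mitochondrial DNA. With all libraries 0 of 13 passed in any comparison by edgeR. In FTO 8 were lower at an unadjusted p under 0.05, where 6.95% of all genes were. The median log2 fold change against Vector was −0.95 for FTO and −0.22 for mut-FTO. MT-CO1, the catalytic subunit of cytochrome c oxidase, measured 11275, 11525 and 37997.5 CPM in Vector, 10459 to 12249 with FTO and 13937 to 20745 with mut-FTO, so Vector replicate 3 set these values. Without it the medians were −0.05 in FTO and 0.72 in mut-FTO, where 11 of 13 rose (6.56% of all genes). Then 13 of 13 were lower in FTO than in mut-FTO (median −0.72), where 5.63% of all genes were. With all libraries, too, the FTO values of all 13 lay under those of mut-FTO without overlap (14.2% of all genes). The mRNAs of the ribosomal proteins and of the proteins this ribosome makes thus had medians of 0.14 and 0.72 in mut-FTO without Vector replicate 3, and that difference was not tested.

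Genes for 2 other large complexes were measured in the same libraries. Of 82 tested genes for proteins of the cytosolic ribosome, 0 rose in FTO and 7 in mut-FTO, with 0 falling, and the medians were 0.56 and 0.59. Of 77 tested nuclear genes for oxidative phosphorylation, 0 rose in FTO and 7 in mut-FTO, with 0 falling, and the medians were 0.39 and 0.56. Over all genes 0.306% rose in FTO and 3.27% in mut-FTO. At an unadjusted p under 0.05, 51 and 19 of these were higher in FTO (4.94% of all genes) and 61 and 44 in mut-FTO (10.1%), with 0 lower. Leaving out Vector replicate 3, 7 genes of the cytosolic ribosome and 2 of oxidative phosphorylation rose in FTO (1.15% of all genes), and 27 and 21 rose in mut-FTO (6.56%), where 1 gene of oxidative phosphorylation fell. Without Vector replicate 3 the medians were 0.36 and 0.43 for the cytosolic ribosome and 0.18 and 0.39 for oxidative phosphorylation, against 0.15 and 0.14 for the mitochondrial ribosomal proteins. Their median deviations in Vector replicate 3 were −0.80 and −0.75, against −0.46 for the mitochondrial ribosomal proteins. Differences between these sets were not tested.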

How the data were processed

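Polyadenylated RNA of 9 libraries was sequenced, and the deposited table gives whole-number read counts per gene, 3 libraries per group, not normalised. The submitters' processing notes name HISAT2, StringTie and the mouse build mm10. The gene symbols are human, so no coordinates of the files were used. The annotation, the use of strand and the handling of reads matching several genes were not stated.

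The counts of all 9 libraries were fitted with edgeR 4.0.16 in R 4.3.3 (TMM scaling, filterByExpr by group with a minimum count of 10, robust quasi-likelihood fit, 1 term per group), with p-values adjusted over all 13713 genes and a threshold of 0.05. CPM was computed with TMM-scaled sizes, and for log2 CPM a prior count of 2 was added. The SE of a log2 fold change was taken from the fold change and its F statistic. Alternatives were DESeq2 1.42.0, limma-voom (limma 3.58.1), other scalings, filters, sets of libraries, each library left out, and offsets for GC content and length (loess span 0.5). Transcript length and GC content are medians over the protein-coding transcripts of GENCODE 29, available for all 78 members and 91.2% of tested genes. The fitting steps were tested on simulated data.

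The members, the gene lists and the alternatives were chosen with earlier results of these data known. Members named are those passing the test, those of lowest p and largest change in each comparison and class, the highest and lowest per length, MRPS36 and the MRPS18 paralogues. Others named for Vector replicate 3, the stalk and the promoters were chosen after their values were seen. Within groups no 2 libraries agreed within sampling noise (chi-square per degree of freedom of at least 13.1). Proteins were not analysed here.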

Additional observations from a re-analysis of the deposited data

How the results depend on the processing

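The count of members called was 0 in FTO against Vector and in FTO against mut-FTO under every alternative run. In mut-FTO against Vector, 2 members were called, against 6 with DESeq2, 5 with GC content and length offsets (4 rose and 1 fell), 1 with DESeq2's size factors in edgeR, and 0 with totals alone, with no filter on low counts and with only the 6 libraries compared. When each library was left out in turn the count was between 0 and 8. The 8 were called with Vector replicate 1 out, 6 with replicate 3 out and 0 with replicate 2 or any library of the FTO groups out. Over all genes in this comparison, 1067 of 13713 were called, against 1680 with DESeq2 and 2142 with the offsets. Calls over all genes were 1270 of 13976 with Vector replicate 1 out and 2089 of 13953 with Vector replicate 3 out. The median log2 fold change over members kept its sign against Vector, at 0.15 to 0.43 in FTO and 0.14 to 0.45 in mut-FTO with a library left out. It was 0.085 in FTO with GC content and length offsets. In FTO against mut-FTO the median lay between −0.06 and 0.05. For named members, 643 values of 684 kept direction and side of the threshold, 23 fell short of it, 10 passed it and 8 changed sign. With a library left out, MRPS31 in FTO against Vector ranged from −0.24 to 0.18 and MRPL32 from −0.21 to 0.17, both positive only without Vector replicate 3. MRPS18B in mut-FTO against Vector, at −0.01, turned to 0.028 with limma-voom and ranged from −0.23 to 0.18 with a library left out. The causes were not tested.

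With the replicate number as a block, 0 members were called in FTO against Vector, 1 (MRPL54) in mut-FTO against Vector and 0 in FTO against mut-FTO, and MRPS18B stood at 0.0035. Correlations of deviations were −0.13 to 0.11 between libraries with the same number and −0.12 to 0.15 between those with different numbers. With 3 libraries per group this cannot decide whether libraries of the same number shared a batch or culture. Across all genes, calls in FTO against Vector went from 102 to 364 with DESeq2 and in mut-FTO against Vector from 1067 to 1680. At these depths every member had at least 195 counts in each library.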
